A study of Mus musculus with 15 samples.

Results

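The lysyl oxidases and elastic fibre genes were followed in fibroblasts sorted from mouse lungs with breast cancer metastases. The list named 10 genes, Lox, Loxl1, Loxl2, Loxl3, Loxl4, Eln, Fbln5, Fbn1, Mfap4 and Emilin1, and members were the probe sets whose only gene symbol was one of these names. A probe set is a group of short probes for 1 transcript on the Affymetrix Mouse Genome array used. The rule found 15 of 45036 probe sets, which stood for 8 of 18193 genes. Lox had 3 probe sets, Loxl1, Loxl4, Eln, Fbln5 and Emilin1 had 2 each, and Loxl3 and Mfap4 had 1 each. Both probe sets that name Loxl2 carry a second symbol, and Fbn1 had no probe set under its symbol, so these 2 genes were not analysed here.

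The 15 arrays fell into 5 groups of 3, all of female NSG mice, an immunodeficient strain without mature lymphocytes. MDA-LM2 macro and MDA macro fibroblasts came from mice that had received MDA-MB-231-LM2 (MDA-LM2) or MDA-MB-231 (MDA) cells through the tail vein 3 weeks earlier. MDA-LM2 micro and MDA micro fibroblasts came from mice 1 week after they had received the same lines, and Healthy fibroblasts from age-matched mice without cancer cells. MDA is an established human breast cancer line, and MDA-LM2 is a highly metastatic derivative of it. Mice were 6 to 8 weeks of age at injection, and lungs with MDA or MDA-LM2 metastases were chosen for similar burden at each time point. Each replicate held the cells of 1 to 3 mice. Cells were gated as positive for CD140a/b, the receptors encoded by Pdgfra and Pdgfrb, and negative for markers of leukocytes, myeloid, endothelial and epithelial cells. The whole lung was sorted, so cells next to metastases and cells far from them are mixed in every sample.

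Lysyl oxidases are secreted, copper-dependent enzymes that oxidise lysines in collagen and elastin, the step from which crosslinks form. An elastic fibre is built of crosslinked elastin, encoded by Eln, on a scaffold of fibrillin microfibrils. Fibulin-5 (Fbln5) binds elastin precursors and helps to place them on the scaffold, Emilin1 lies where elastin meets the microfibrils, and Mfap4 binds elastin and the fibres. In the lung these fibres give the airspaces their recoil.

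Of the 10 genes, 4 had an entry in the RefSeq table of upstream sequences used here (GRCm38.p6): Fbln5, Loxl4, Emilin1 and Fbn1. The 250 bases upstream of the outermost annotated start are shown for Fbln5 and Loxl4, a pair of members that were lower at the macro than at the micro stage. The Fbln5 stretch lies at chr12:101819120-101819369 and the Loxl4 stretch at chr19:42612807-42613056, both read from the minus strand, 5′ to 3′. Capitals mark the GC box GGGCGG on either strand and CAGAC, the core bound by SMAD factors. These 2 motifs were added after the stretches had been seen.
Fbln5: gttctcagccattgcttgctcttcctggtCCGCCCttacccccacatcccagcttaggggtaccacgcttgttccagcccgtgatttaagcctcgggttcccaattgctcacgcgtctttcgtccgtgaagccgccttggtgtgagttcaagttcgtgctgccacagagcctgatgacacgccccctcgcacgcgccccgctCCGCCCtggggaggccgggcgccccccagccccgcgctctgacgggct
Loxl4: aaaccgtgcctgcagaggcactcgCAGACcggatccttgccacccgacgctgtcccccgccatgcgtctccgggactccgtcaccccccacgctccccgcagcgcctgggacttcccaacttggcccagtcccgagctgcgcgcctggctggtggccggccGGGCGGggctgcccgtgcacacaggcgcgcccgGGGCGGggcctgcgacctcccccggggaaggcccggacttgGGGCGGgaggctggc
GGGCGG was found in 32.7% and CAGAC in 42.2% of 32851 upstream windows of this length, searched on both strands. The TATA box, spelled TATAAA, was in neither stretch and in 12.4% of all windows. Likewise neither stretch held the AP-1 motif TGANTCA, found in 6.7% of all windows. The hypoxia response core ACGTG, in 16.6% of windows, and the TEAD motif GGAATG, in 12.6%, were also in neither. The Fbln5 stretch had 65.2% and the Loxl4 stretch 76% G and C, against a median of 52.4% over all windows. Fbln5 has a second annotated start, not shown, with its window at chr12:101818485-101818734. That window had 49.6% G and C and held CAGAC but no GGGCGG, unlike the Fbln5 stretch shown. A match of letters is a description and not evidence that a factor binds there.

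Levels are log2 intensities of the probe set with the highest mean of each gene, and differences are log2 fold changes ± standard error (SE) from limma on the 6 arrays compared. Differences with an adjusted p under 0.05 (limma, Benjamini-Hochberg over 18193 genes) are referred to as called. All 15 arrays had medians between 7.44 and 7.54, correlated pairwise at 0.918 to 0.981, and none were identical. The gate genes were checked first: Pdgfra lay between 11.70 and 12.65 and Pdgfrb between 11.67 and 12.44, while Ptprc (6.26 to 6.57) and Epcam (6.47 to 6.71) lay under the array medians throughout. Pecam1, the endothelial gate marker, lay between 6.89 and 8.27, and Itgam, the myeloid one, between 5.53 and 6.63. On some arrays Pecam1 thus lay above the array medians, up to 8.27 in Healthy and 8.18 in MDA-LM2 micro. The summed intensity of 6 epithelial markers, Epcam among them, varied between arrays, at 902 to 3128 in Healthy and 824 to 5193 in MDA micro. It was 756 to 3923 in MDA-LM2 micro, 1622 to 2312 in MDA-LM2 macro and 1318 to 1651 in MDA macro. Of the 6, 1 was called higher and 1 lower in MDA-LM2 macro over Healthy, and 1 higher in MDA macro. The p-values measure the spread between samples of 1 to 3 mice. In sorted bulk RNA, fewer cells of a type and less RNA per cell cannot be told apart.

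At the macro stage, fibroblasts held more RNA for Lox, Loxl3, Eln and Emilin1 and less for Fbln5 than Healthy fibroblasts, and the same 5 members were called with either cancer line. Of the 8 members measured, 4 rose and 1 fell in MDA-LM2 macro, where 22.6% of all genes were called (13.6% higher, 8.98% lower). In MDA macro 4 rose and 1 fell, where 15.2% of all genes were called (8.43% higher, 6.8% lower). The median log2 fold change over the 8 members was 0.34 in MDA-LM2 macro and 0.41 in MDA macro, against 0.08 and 0.05 over all genes. The arrays of 7 of 8 members did not overlap between MDA-LM2 macro and Healthy, and those of 6 of 8 between MDA macro and Healthy, where 43.4% and 37.7% of all genes did not overlap. Both comparisons used the same 3 Healthy arrays.

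**Figure D1:**
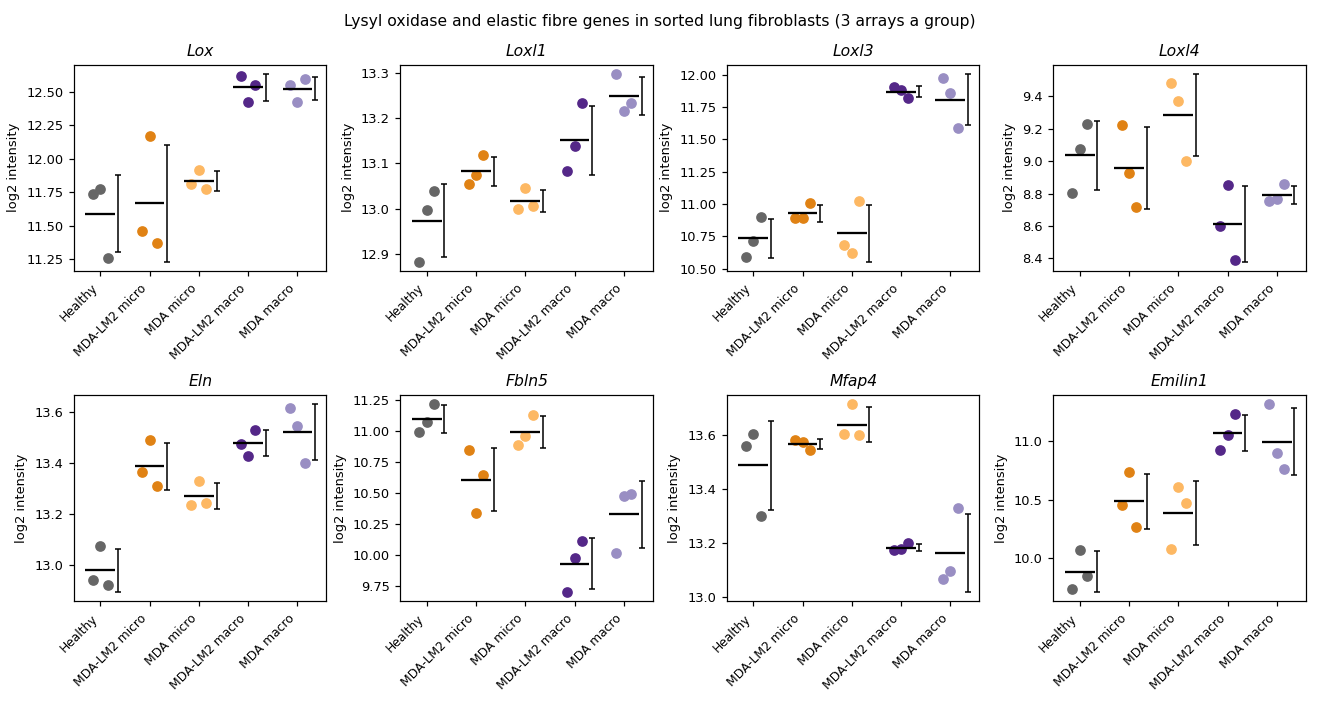
Log2 intensity (vertical axes) of the 8 measured genes on each of the 15 arrays, by group (horizontal axes), with points for arrays, lines for group means and bars for the SD of 3 arrays. Lox and Loxl3 are highest in the macro groups, Eln and Emilin1 are above the Healthy arrays in all 4 metastasis groups, and Fbln5 and Mfap4 are low in the macro groups.

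Lox, the founding member of the family, acts on both collagen and elastin. Its level was 12.62, 12.42 and 12.55 in MDA-LM2 macro and 12.55, 12.42 and 12.59 in MDA macro, against 11.74, 11.77 and 11.26 in Healthy. All macro arrays lay above all Healthy arrays. Lox rose by 0.94 ± 0.16 in MDA-LM2 macro (1.92-fold, limma adjusted p = 0.00732) and by 0.93 ± 0.16 in MDA macro (1.91-fold, limma adjusted p = 0.0109). At the micro stage, Lox stood at 11.46, 12.17 and 11.37 in MDA-LM2 micro and at 11.81, 11.91 and 11.77 in MDA micro. The second MDA-LM2 micro array stood apart from the other arrays of its group, and MDA-LM2 micro overlapped Healthy. The MDA micro arrays all lay above Healthy, by a narrow margin (lowest 11.774 against a highest Healthy array of 11.771). The micro differences from Healthy were 0.08 ± 0.25 for MDA-LM2 and 0.24 ± 0.16 for MDA, neither called.

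Loxl3, a member of the branch with scavenger receptor domains, was called in both macro groups over Healthy and stayed called when any 1 array was left out. It measured 11.90, 11.88 and 11.82 in MDA-LM2 macro and 11.97, 11.86 and 11.59 in MDA macro, against 10.59, 10.71 and 10.90 in Healthy. The lowest macro array was thus above the highest Healthy array. The rise was 1.13 ± 0.12 in MDA-LM2 macro (2.19-fold, limma adjusted p = 0.000978) and 1.07 ± 0.15 in MDA macro (2.10-fold, limma adjusted p = 0.0043). In MDA-LM2 micro it measured 10.89, 10.89 and 11.00 and in MDA micro 10.68, 10.62 and 11.03, values that overlapped those of Healthy.

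Loxl1, the enzyme most closely tied to elastic fibre upkeep, had the narrowest range over the 15 arrays, 0.41 on the log2 scale. It measured 13.08, 13.14 and 13.23 in MDA-LM2 macro and 13.30, 13.22 and 13.23 in MDA macro, against 12.88, 13.00 and 13.04 in Healthy. The macro groups lay above Healthy by 0.18 ± 0.11 (MDA-LM2 macro) and 0.28 ± 0.11 (MDA macro), neither called (limma adjusted p = 0.267 and 0.138). A fit of all 15 arrays together called the MDA macro difference (limma adjusted p = 0.0422). Levels are not compared between genes, since probe sets differ in brightness.

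Loxl4, another enzyme of the scavenger receptor branch, ran the other way. It measured 8.60, 8.85 and 8.39 in MDA-LM2 macro and 8.75, 8.77 and 8.86 in MDA macro, against 8.80, 9.08 and 9.23 in Healthy. The macro arrays overlapped the lowest Healthy array. The differences of -0.42 ± 0.17 (MDA-LM2 macro) and -0.24 ± 0.14 (MDA macro) were not called (limma adjusted p = 0.111 and 0.281).

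Eln encodes elastin itself. It measured 13.47, 13.43 and 13.53 in MDA-LM2 macro and 13.61, 13.55 and 13.40 in MDA macro, against 12.94, 13.08 and 12.92 in Healthy. Every macro array was above every Healthy array. Eln rose by 0.50 ± 0.10 in MDA-LM2 macro (1.41-fold, limma adjusted p = 0.0151) and by 0.54 ± 0.12 in MDA macro (1.45-fold, limma adjusted p = 0.0241). The MDA macro call was lost without Healthy replicate 1 or 3 or MDA macro replicate 1 or 2 (limma adjusted p = 0.0681 to 0.0798), and the MDA-LM2 macro call without MDA-LM2 macro replicate 3 (limma adjusted p = 0.0529), with log2 fold changes of 0.49 to 0.53 and 0.47.

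Emilin1 had the largest rise at the macro stage of the 4 elastic fibre components measured. It measured 10.93, 11.05 and 11.23 in MDA-LM2 macro and 11.31, 10.90 and 10.77 in MDA macro, against 9.74, 10.07 and 9.85 in Healthy. The groups did not overlap. The rise was 1.18 ± 0.14 in MDA-LM2 macro (2.27-fold, limma adjusted p = 0.0015) and 1.11 ± 0.18 in MDA macro (2.15-fold, limma adjusted p = 0.00746).

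Fbln5 was the member that fell. It measured 9.70, 9.98 and 10.11 in MDA-LM2 macro and 10.01, 10.48 and 10.49 in MDA macro, against 11.00, 11.07 and 11.21 in Healthy. All macro arrays lay under all Healthy arrays. Fbln5 fell by 1.17 ± 0.14 on the log2 scale in MDA-LM2 macro (limma adjusted p = 0.00166) and by 0.77 ± 0.16 in MDA macro (limma adjusted p = 0.0212). The MDA macro call was lost without Healthy replicate 2 or 3 (limma adjusted p = 0.0536 and 0.0662), and on the mean of both probe sets (-0.46, limma adjusted p = 0.0908).

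Mfap4 measured 13.18, 13.18 and 13.20 in MDA-LM2 macro and 13.07, 13.10 and 13.33 in MDA macro, against 13.56, 13.60 and 13.30 in Healthy. MDA-LM2 macro lay under Healthy, while MDA macro overlapped it. The differences of -0.30 ± 0.12 (MDA-LM2 macro) and -0.32 ± 0.14 (MDA macro) were not called (limma adjusted p = 0.108 and 0.164). A fit of all 15 arrays together called the MDA macro difference (limma adjusted p = 0.0484). A fit in which the variance followed the intensity called the MDA-LM2 macro difference (limma adjusted p = 0.0255).

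**Figure D2:**
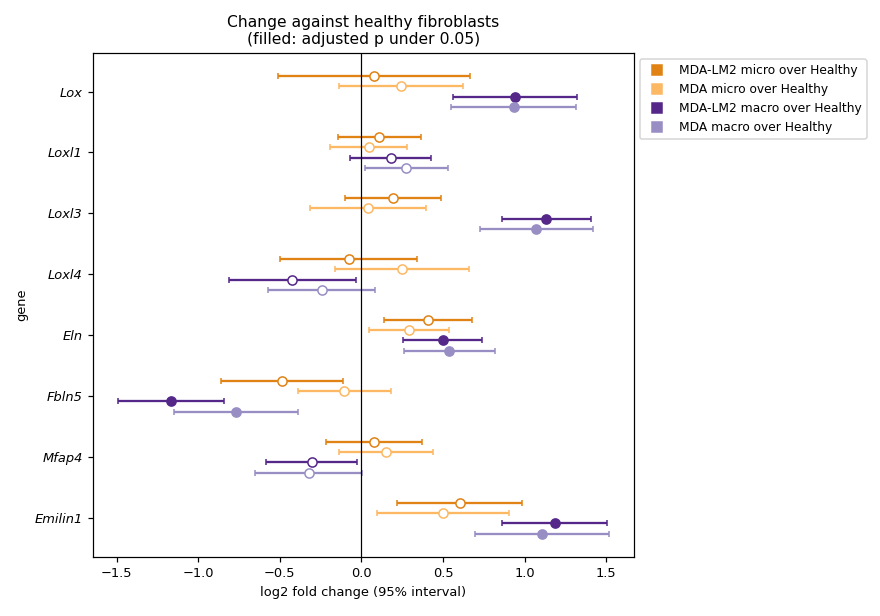
Log2 fold change with its 95% interval (horizontal axis) of each member gene (vertical axis) in the 4 metastasis groups over Healthy, filled where called. No member is called in the micro groups, and Lox, Loxl3, Eln, Emilin1 (higher) and Fbln5 (lower) are called in both macro groups.

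At the micro stage no member was called with either line. The lowest adjusted p over the 8 members was 0.215 in MDA-LM2 micro and 0.534 in MDA micro (limma). Over all genes, 0.583% were called in MDA-LM2 micro and 0% in MDA micro, so few genes of any kind passed the test there. Eln nevertheless did not overlap the Healthy arrays in either micro group. It measured 13.37, 13.49 and 13.31 in MDA-LM2 micro and 13.23, 13.33 and 13.24 in MDA micro, with differences from Healthy of 0.41 ± 0.11 in MDA-LM2 micro and 0.29 ± 0.10 in MDA micro (limma adjusted p = 0.233 and 0.547). A fit in which the variance followed the intensity called Eln in MDA-LM2 micro (limma adjusted p = 0.0459).

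Emilin1 gave the same picture at week 1. It measured 10.46, 10.74 and 10.27 in MDA-LM2 micro and 10.08, 10.61 and 10.48 in MDA micro, all above the highest Healthy array at 10.07. The differences from Healthy were 0.60 ± 0.16 in MDA-LM2 micro and 0.50 ± 0.17 in MDA micro (limma adjusted p = 0.215 and 0.534). Members that did not overlap Healthy numbered 4 of 8 in MDA-LM2 micro and 3 of 8 in MDA micro, where 18.5% and 14.3% of all genes did not overlap.

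Fbln5 measured 10.84, 10.33 and 10.64 in MDA-LM2 micro, all under the Healthy arrays, and 10.88, 10.96 and 11.13 in MDA micro, which overlapped them. Its differences from Healthy were -0.49 ± 0.16 in MDA-LM2 micro and -0.10 ± 0.12 in MDA micro (limma adjusted p = 0.304 for MDA-LM2 micro). Loxl1 measured 13.06, 13.07 and 13.12 in MDA-LM2 micro and 13.00, 13.05 and 13.01 in MDA micro. Mfap4 measured 13.58, 13.57 and 13.55 in MDA-LM2 micro and 13.60, 13.71 and 13.60 in MDA micro. Loxl4 measured 9.23, 8.93 and 8.72 in MDA-LM2 micro and 9.49, 9.37 and 9.003 in MDA micro. None of these 3 genes differed from Healthy by more than 0.25 at week 1.

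The macro stage was then set against the micro stage on the 12 metastasis arrays, in a fit that also held a term for the line. Of the 8 members, 6 were called, 3 higher and 3 lower, where 31.1% of all genes were called (18.8% higher, 12.3% lower). Lox rose by 0.78 ± 0.12 (limma adjusted p = 0.000487), Loxl3 by 0.98 ± 0.09 (limma adjusted p = 7.64e-06) and Emilin1 by 0.59 ± 0.13 (limma adjusted p = 0.00353). Fbln5 fell by 0.67 ± 0.12 (limma adjusted p = 0.00102), Mfap4 by 0.43 ± 0.07 (limma adjusted p = 0.000601) and Loxl4 by 0.42 ± 0.12 (limma adjusted p = 0.0167). All 6 calls held in each of the 12 fits that left out 1 array. Eln (0.17 ± 0.07) and Loxl1 (0.15 ± 0.07) were not called on this probe set (limma adjusted p = 0.0967 and 0.107). With arrays centred on their median, Eln and Loxl1 were both called on it (limma adjusted p = 0.04625 and 0.0416). A fit in which the variance followed the intensity also called both (limma adjusted p = 0.0149 and 0.0123). By role, 2 of 4 lysyl oxidases rose and 1 fell, and 1 of 4 elastic fibre components rose and 2 fell.

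Within 1 line the stage comparison rested on 6 arrays. In MDA-LM2, macro over micro, 5 members were called where 15.6% of all genes were called (9.25% higher, 6.38% lower): Lox (0.86 ± 0.22), Loxl3 (0.94 ± 0.10) and Emilin1 (0.58 ± 0.16) rose, and Fbln5 (-0.68 ± 0.17) and Mfap4 (-0.38 ± 0.10) fell. Loxl3 was called in all 6 fits that left out 1 array, with limma adjusted p of at most 0.00981. Lox, Fbln5 and Emilin1 were called only in the fit without MDA-LM2 micro replicate 2, and Mfap4 in none of the 6, with limma adjusted p of up to 0.108, 0.116, 0.14 and 0.115. On the mean of both probe sets Fbln5 was not called (-0.42, limma adjusted p = 0.0704). In MDA-LM2 micro replicate 2 Lox was 12.17, against 11.46 and 11.37 on the other arrays of its group. Without it Lox rose by 1.11 (limma adjusted p = 0.00358). The MDA-LM2 macro and MDA-LM2 micro arrays did not overlap for 5 of 8 members, and for 36.3% of all genes.

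In MDA, macro over micro, 4 members were called where 18.4% of all genes were called (10.4% higher, 7.95% lower). Lox (0.69 ± 0.11, limma adjusted p = 0.00645) and Loxl3 (1.03 ± 0.16, limma adjusted p = 0.00535) rose and were called in all 6 fits that left out 1 array. Fbln5 (-0.66 ± 0.16) and Mfap4 (-0.48 ± 0.12) fell (limma adjusted p = 0.0296 and 0.0346) and were called only in the fit without MDA macro replicate 3, with limma adjusted p of up to 0.0915 and 0.102 in the others. On the mean of both probe sets Fbln5 was not called (-0.31, limma adjusted p = 0.189). Loxl4 was not called with all arrays (-0.49, limma adjusted p = 0.0596) and was called without MDA micro replicate 3 (-0.63, limma adjusted p = 0.0277). All 8 members had MDA macro and MDA micro arrays that did not overlap, and 39.2% of all genes did so.

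The groups of the 2 cancer lines were compared at each stage, and no member was called. At the macro stage, 0.011% of all genes were called between MDA-LM2 and MDA. The difference was 0.01 for Lox (95% interval -0.25 to 0.27), 0.06 for Loxl3 (-0.24 to 0.36), -0.04 for Eln (-0.30 to 0.21) and 0.08 for Emilin1 (-0.31 to 0.47). Fbln5 had the widest gap, -0.40 (-0.80 to 0.01, limma adjusted p = 0.496). No member had macro groups that did not overlap between the lines, where 16.1% of all genes did not overlap.

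At the micro stage Fbln5 was again the member with the widest gap between the lines, -0.38 (95% interval -0.76 to -0.01). It was not called (limma adjusted p = 0.421), where 0.412% of all genes were called. For 3 of 8 members (Loxl1, Fbln5 and Mfap4) the 2 micro groups did not overlap, and 18.2% of all genes did so. The stage by line interaction, which compares the macro over micro change in MDA-LM2 with that in MDA, was called for 0 of 8 members and 0.566% of all genes. Its estimate was 0.17 for Lox (95% interval -0.38 to 0.73), -0.09 for Loxl3 (-0.51 to 0.32) and -0.02 for Fbln5 (-0.55 to 0.52). These intervals leave room for differences close to the size of several stage effects.

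Second probe sets gave another reading of the same genes on the same arrays. Probe sets of a gene are numbered here by their mean level. The second Lox probe set measured 11.88, 11.95 and 11.89 in MDA-LM2 macro and 12.10, 11.98 and 11.85 in MDA macro, against 10.81, 10.90 and 10.49 in Healthy. Its rise of 1.18 ± 0.14 in MDA-LM2 macro and 1.25 ± 0.15 in MDA macro was larger than that of the brighter one (limma adjusted p = 0.00208 and 0.00349 over 45036 probe sets). The third Lox probe set lay under the array median on all 15 arrays and was not called in any comparison. The second Eln probe set measured 13.36, 13.22 and 13.34 in MDA-LM2 macro and 13.41, 13.34 and 13.45 in MDA macro, against 12.57, 12.70 and 12.56 in Healthy. It rose by 0.69 ± 0.11 in MDA-LM2 macro and 0.79 ± 0.11 in MDA macro (limma adjusted p = 0.00618 and 0.00611), and also over both lines from micro to macro (0.29 ± 0.07, limma adjusted p = 0.00994), where the brighter Eln probe set was not called.

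The second Loxl1 probe set was called for macro over micro over both lines (0.50 ± 0.09, limma adjusted p = 0.00117), where the brighter one was not. Against Healthy it was not called, and its Healthy arrays spread widely, at 10.69, 11.46 and 10.91. The second Emilin1 probe set rose by 0.91 ± 0.10 in MDA-LM2 macro and by 0.78 ± 0.12 in MDA macro over Healthy (limma adjusted p = 0.00191 and 0.00951). Its MDA micro arrays stood at 9.14, 10.36 and 9.17, so that 1 array of that group reached above the macro arrays. The second Fbln5 probe set lay under the array median on all 15 arrays and was not called. The second Loxl4 probe set also ran lower at the macro stage (-0.44 ± 0.21 over both lines) and was not called. Probe sets called over both lines numbered 9 of 15, where 30.6% of all probe sets were called. Over Healthy, 8 of 15 were called in MDA-LM2 macro and 8 of 15 in MDA macro, where 20% and 13.1% of all probe sets were called.

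**Figure D3:**
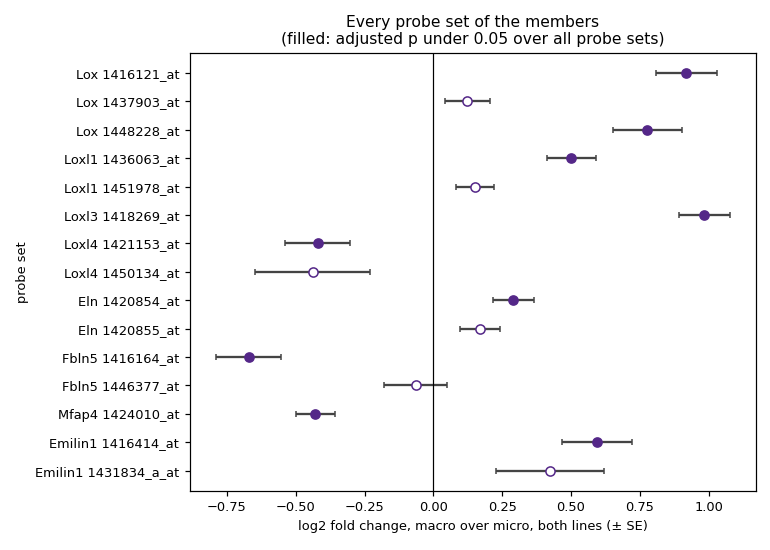
Log2 fold change ± SE (horizontal axis) for macro over micro over both lines, from 12 arrays, for each of the 15 member probe sets (vertical axis), filled where called. Probe sets of 1 gene point the same way for every gene, and the dim ones of Lox and Fbln5 stay near 0.

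Correlations between members were read over the 15 arrays, with and without the group means. Eln and Emilin1 ran together (Pearson r = 0.935, and 0.833 after group means were removed), while Loxl3 and Mfap4 ran opposite (r = -0.924, and -0.773 after group means were removed). Other pairs changed sign once group means were removed. With Lox these were Loxl3 (r = 0.811, and -0.41 after removal), Loxl1 (0.668, and -0.261 after removal) and Mfap4 (-0.669, and 0.506 after removal). Loxl1 and Fbln5 (-0.658, and 0.171 after removal) and Loxl4 and Mfap4 (0.63, and -0.081 after removal) also did so. For Fbln5 and Mfap4 r was 0.716, and 0.079 after removal. These correlations describe 15 arrays that share 5 groups. Of all genes, those whose levels were most like Lox were Tbc1d1 (r = 0.954), Rph3a (0.941), Prc1 (0.936), Zmynd15 (0.935) and Mt2 (0.934). Those most like Eln were Emilin1 (0.935), Cxcl10 (0.933), Gpc1 (0.932), Rnf152 (0.921) and Cxcl9 (0.916).

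The other genes of the elastic fibre changed in both directions. Of 16 measured partners, 4 rose and 6 fell in MDA-LM2 macro, where 13.6% of all genes rose and 8.98% fell, and 2 rose and 4 fell in MDA macro, where 8.43% rose and 6.8% fell, with medians of -0.09 and -0.01. Fbn2, a fibrillin best known from development, rose by 1.63 ± 0.15 in MDA-LM2 macro and 1.09 ± 0.17 in MDA macro, and Ltbp2, a microfibril binding protein, by 1.12 ± 0.18 in MDA-LM2 macro and 1.37 ± 0.18 in MDA macro. Vcan, the proteoglycan versican, rose by 0.89 ± 0.21 in MDA-LM2 macro. Efemp1, the gene for fibulin-3, fell by 1.26 ± 0.11 in MDA-LM2 macro and 0.99 ± 0.12 in MDA macro. Ltbp4, which binds fibulin-5 and helps elastin assembly, fell by 1.12 ± 0.10 in MDA-LM2 macro and 0.72 ± 0.12 in MDA macro. Adamtsl4, a microfibril associated protein, fell by 1.23 ± 0.14 in MDA-LM2 macro and 0.93 ± 0.14 in MDA macro.

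**Figure D4:**
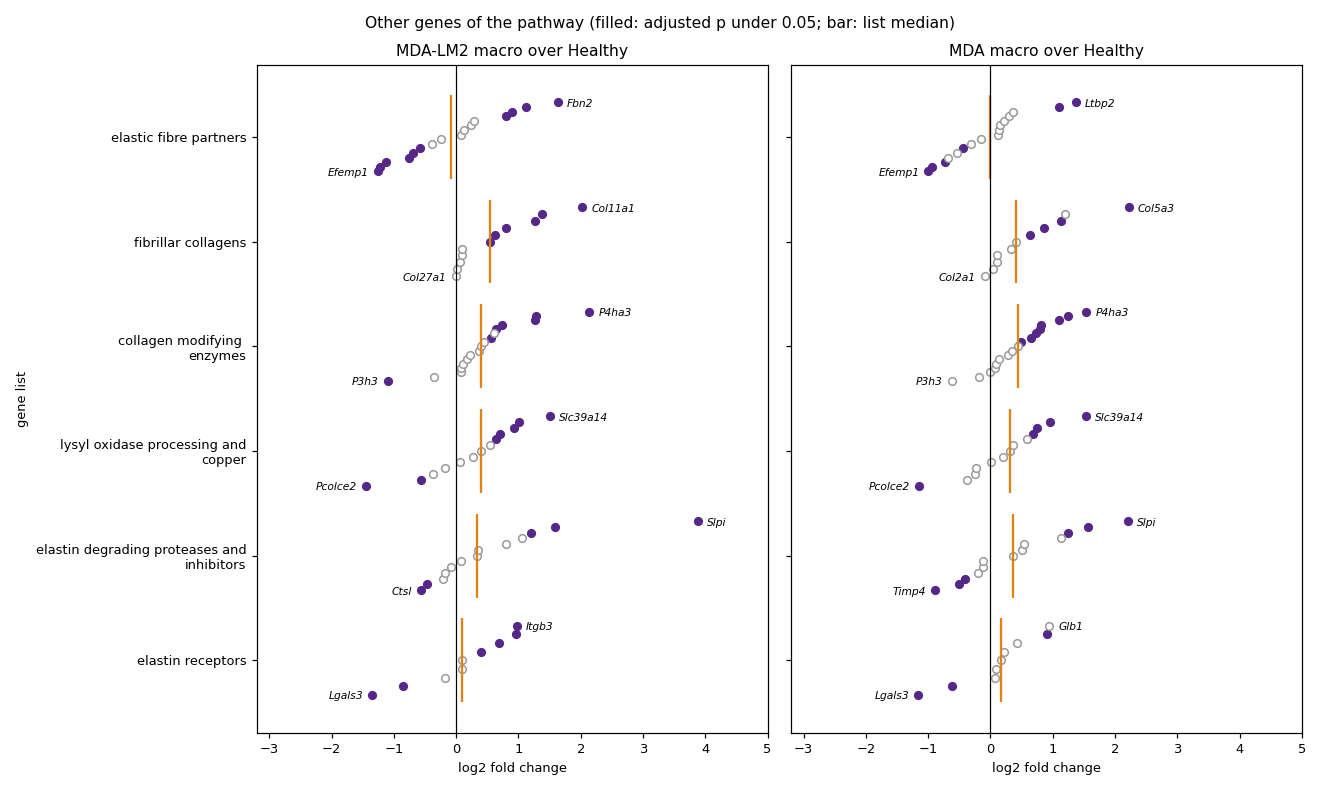
Log2 fold change (horizontal axes) of the measured genes of 6 pathway lists (vertical axis) in MDA-LM2 macro and MDA macro over Healthy, 1 point a gene, filled where called, with a bar at each list's median. Fibrillar collagens lie at or above 0 with few exceptions, and elastic fibre partners lie on both sides.

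Fibrillar collagens are the other main substrate of lysyl oxidases. Of 11 fibrillar collagen genes, 6 rose and 5 were not called in MDA-LM2 macro, 4 rose and 7 were not called in MDA macro, and none were called lower, with medians of 0.54 in MDA-LM2 macro and 0.41 in MDA macro. Over all genes, 13.6% rose in MDA-LM2 macro and 8.43% in MDA macro. The main fibril genes Col1a1 (0.09 in MDA-LM2 macro and 0.11 in MDA macro), Col1a2 (0.09 in MDA-LM2 macro and 0.11 in MDA macro) and Col3a1 (0.01 in MDA-LM2 macro and 0.04 in MDA macro) were not called, and were named after their values were seen. The highest changes among called genes were of minor fibril collagens: Col5a2 rose by 1.26 ± 0.11 in MDA-LM2 macro and 1.14 ± 0.12 in MDA macro, Col5a3 by 1.37 ± 0.22 in MDA-LM2 macro and 2.22 ± 0.22 in MDA macro, and Col11a1 by 2.02 ± 0.36 in MDA-LM2 macro.

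Of 17 collagen modifying enzymes, 6 rose and 1 fell in MDA-LM2 macro (13.6% and 8.98% of all genes), and 8 rose and 0 fell in MDA macro (8.43% and 6.8% of all genes). P4ha3, a subunit of the enzyme that hydroxylates collagen prolines, rose by 2.14 ± 0.12 in MDA-LM2 macro and 1.54 ± 0.15 in MDA macro. P3h1, a prolyl 3-hydroxylase, rose by 1.29 ± 0.16 in MDA-LM2 macro and 1.25 ± 0.13 in MDA macro. Plod2, which hydroxylates the telopeptide lysines that lysyl oxidases act on, rose by 1.26 ± 0.12 in MDA-LM2 macro and 1.10 ± 0.14 in MDA macro. P3h3 fell by 1.10 ± 0.27 in MDA-LM2 macro. In MDA-LM2 micro over Healthy, P4ha3 was the 1 gene of this list that was called (1.26).

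Among 13 genes for lysyl oxidase processing and copper, 5 rose and 2 fell in MDA-LM2 macro (13.6% and 8.98% of all genes), and 4 rose and 1 fell in MDA macro (8.43% and 6.8% of all genes). Bmp1, the protease that releases active Lox from its proenzyme, rose by 1.01 ± 0.11 in MDA-LM2 macro and 0.95 ± 0.16 in MDA macro. Slc39a14, a metal ion transporter, rose by 1.50 ± 0.28 in MDA-LM2 macro and 1.54 ± 0.27 in MDA macro, and Mt2, a metallothionein, by 0.93 ± 0.12 in MDA-LM2 macro and 0.75 ± 0.14 in MDA macro. Pcolce2, an enhancer of procollagen cleavage by Bmp1, fell by 1.45 ± 0.10 in MDA-LM2 macro and 1.15 ± 0.19 in MDA macro, and Pcolce by 0.57 ± 0.13 in MDA-LM2 macro.

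Of 13 elastin degrading proteases and their inhibitors, 3 rose and 2 fell in MDA-LM2 macro (13.6% and 8.98% of all genes) and 3 rose and 3 fell in MDA macro (8.43% and 6.8% of all genes). Slpi, an inhibitor of neutrophil elastase, rose by 3.88 ± 0.31 in MDA-LM2 macro and 2.20 ± 0.54 in MDA macro, Timp1 by 1.59 ± 0.19 in MDA-LM2 macro and 1.56 ± 0.20 in MDA macro, and Mmp14, a membrane metalloproteinase, by 1.21 ± 0.10 in MDA-LM2 macro and 1.24 ± 0.12 in MDA macro. Ctsl, a lysosomal protease, fell by 0.57 ± 0.11 in MDA-LM2 macro and 0.51 ± 0.13 in MDA macro, and Timp2 by 0.46 ± 0.10 in MDA-LM2 macro and 0.42 ± 0.11 in MDA macro. The inhibitor Timp4 fell by 0.90 ± 0.23 in MDA macro and was not called in MDA-LM2 macro (-0.18 ± 0.19). In MDA-LM2 micro over Healthy it was the 1 gene of this list that was called, and it rose by 2.91. Of 9 elastin receptors, 4 rose and 2 fell in MDA-LM2 macro (13.6% and 8.98% of all genes), and 1 rose and 2 fell in MDA macro (8.43% and 6.8% of all genes). The integrin subunit Itgb5 rose by 0.69 ± 0.10 in MDA-LM2 macro and 0.90 ± 0.12 in MDA macro, and Lgals3, the gene for galectin-3, fell by 1.35 ± 0.12 in MDA-LM2 macro and 1.16 ± 0.12 in MDA macro.

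Markers of other cell types, and of alveolar and adventitial fibroblasts, were also set against Healthy at the macro stage. The summed intensities of endothelial and pericyte markers in MDA macro overlapped those of Healthy, and the other sums given here did not. The summed intensity of 6 mesothelial markers was 3617 to 4277 in MDA-LM2 macro and 1451 to 2589 in MDA macro, against 785 to 898 in Healthy, and 6 and 3 of the 6 were called higher. That of 8 macrophage and leukocyte markers was 1610 to 3181 in MDA-LM2 macro and 2390 to 2442 in MDA macro, against 1187 to 1562 in Healthy. Only 1 of the 8 was called higher in MDA-LM2 macro and 2 in MDA macro. The sum of 6 alveolar fibroblast markers was 14637 to 18873 in MDA-LM2 macro and 15412 to 20671 in MDA macro, against 29215 to 36749 in Healthy, and 6 and 5 of the 6 fell. The sum of 5 adventitial fibroblast markers was 23725 to 26386 in MDA-LM2 macro and 25993 to 30067 in MDA macro, against 35168 to 40215 in Healthy. Of the 5, 3 were called lower in MDA-LM2 macro and 2 in MDA macro. The sum of 6 endothelial markers was 2638 to 2874 in MDA-LM2 macro and 1489 to 1821 in MDA macro, against 1651 to 2389 in Healthy. In each macro group 2 of these markers were called lower and 1 was called higher, the VEGF receptor gene Kdr (4.33 ± 0.12 in MDA-LM2 macro and 3.09 ± 0.14 in MDA macro over Healthy), named after its values were seen. The sum of 6 pericyte markers was 7658 to 10907 in MDA-LM2 macro and 13192 to 16487 in MDA macro, against 12707 to 14798 in Healthy. Of the 6, 1 was called higher and 3 lower in MDA-LM2 macro, and 2 higher and 3 lower in MDA macro. Pdgfra itself fell by 0.57 in MDA-LM2 macro (limma adjusted p = 0.015) and by 0.62 in MDA macro (limma adjusted p = 0.0115), and Pdgfrb rose by 0.55 in MDA macro (limma adjusted p = 0.021) and measured 0.36 higher in MDA-LM2 macro (limma adjusted p = 0.0647). For macro over micro over both lines, 6 of 6 mesothelial markers were called higher and 6 of 6 alveolar fibroblast markers lower. Of 7 smooth muscle markers 4 were called lower, and of 6 pericyte markers 3 lower and 1 higher. Of 5 adventitial fibroblast markers 2 were called lower and 1 higher, and of 8 macrophage and leukocyte markers 3 higher. Over all genes, 18.8% were called higher and 12.3% lower. The part of these shifts in the results for the members was not tested.

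At the micro stage all 7 smooth muscle markers were called higher in MDA-LM2 micro over Healthy. Their summed intensity was 44449 to 45836 in MDA-LM2 micro and 18634 to 22678 in MDA micro, against 15068 to 21145 in Healthy. At the macro stage the sum was 22613 to 24681 in MDA-LM2 macro and 21843 to 27306 in MDA macro, above Healthy in both. Of the 7 markers, 2 were called higher and 2 lower in MDA-LM2 macro over Healthy. In MDA macro 2 were called higher and 1 lower. Smooth muscle cells also make elastin. Eln differed between MDA-LM2 micro and MDA micro by 0.12 (95% interval -0.14 to 0.38, limma adjusted p = 0.737). The part of smooth muscle cells in the Eln values was not tested at either stage. As a sign of RNA quality, the Gapdh difference between 3' and 5' probe sets was 1.01 to 1.05 in MDA-LM2 macro and 1.03 to 1.43 in MDA macro, against 1.16 to 1.70 in Healthy. In the micro groups the Gapdh difference was 1.18 to 1.24 (MDA-LM2 micro) and 1.37 to 1.44 (MDA micro). The Actb difference was -0.12 to -0.10 in MDA-LM2 macro and -0.16 to -0.02 in MDA macro, against -0.21 to -0.11 in Healthy. It was -0.09 to -0.04 in MDA-LM2 micro and -0.12 to -0.06 in MDA micro. The part of RNA quality in the results was not tested.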

How the data were processed

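RNA (2.5 ng) of sorted fibroblasts was preamplified with the Ovation Pico WTA V2 kit and hybridised to Affymetrix Mouse Genome arrays, and the authors normalized the arrays with RMA in Chipster. The deposited values are intensities on a linear scale (lowest 31 to 35.19, highest 26890 to 27897 per array), and they were converted to log2 without further normalization. Without raw scanner values, a low value may be background. Precision is limited by the 3 arrays a group. Of 45100 probe sets, 64 were controls. Of the others, 34944 had 1 gene symbol in the platform annotation, 932 several and 9160 none. 34740 were matched to RefSeq by gene identifier. Each gene was read from its probe set with the highest mean over the 15 arrays.

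Tests were run in R 4.3.3 with limma 3.58.1 (lmFit, eBayes, two-sided) and Benjamini-Hochberg adjustment over all genes, or over all probe sets for single probe sets, and the script was tested on simulated data. Groups and replicate numbers came from the labels. The members, lists and tests were chosen with earlier results of these data known. All members are named, called or not, and for other lists up to 3 called genes with the highest and 3 with the lowest change. Marker genes are named for the gate. Alternatives were a fit of all arrays, quantile normalization, median centring, the mean of a gene's probe sets, leaving out dim genes, testing all probe sets, an intensity trend, a replicate block and leaving out each array. Genes on a probe set with several symbols were not named as measured.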

Additional observations from a re-analysis of the deposited data

How the results depend on the processing

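The 25 called member differences kept their sign in all 386 refits, at 0.473 to 1.289 times the reported value. The count of called members was 5 for MDA macro over Healthy (3 to 5 with 1 array left out), 4 for MDA macro over MDA micro (2 to 4) and 5 for MDA-LM2 macro over MDA-LM2 micro (1 to 4). For MDA-LM2 macro over Healthy it was 4 to 5, and for both lines 6 in each fit. Same-numbered replicates did not deviate together (r = -0.065 to 0.074 over 30 pairs). With the replicate number as a block, MDA-LM2 macro over MDA-LM2 micro had 1 called member (Loxl3), and over all comparisons 7 of 80 member values lost their call and none gained one. With an intensity trend, MDA-LM2 micro over Healthy had 1 called member (Eln), and 7 values gained a call. The mean of a gene's probe sets lost 3 calls and gained 3, median centring lost 1 and gained 2, the fit of all 15 arrays gained 3, quantile normalization and the test of all probe sets lost 1 each, and leaving out dim genes changed none. The cause of these changes was not tested. The number of arrays and the background of dim probe sets limit what small differences can be called.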
